A study of Mus musculus with 4 samples.

Results

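The autophagy machinery was taken as the mouse genes that build, load and feed the autophagosome. A row of the expression tables belonged to it when its RefSeq transcript maps to a gene symbol that starts with Atg and a digit, Map1lc3 or Gabarap, to a numbered Ulk or Wipi gene, or to Becn1, Sqstm1, Optn, Rb1cc1, Pik3c3, Pik3r4, Ambra1, Uvrag, Nbr1 or Tax1bp1. This rule found 39 of 13085 genes, each on 1 row, and it used no expression value.

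RNA-seq was carried out on 4 stable lines of 3T3-L1, a murine preadipocyte line that stores lipid after hormonal induction. FLAG-CACUL1 cells overexpress CACUL1, a protein known as a corepressor of nuclear receptors, and were set against FLAG cells with the empty vector. CACUL1 is depleted by a hairpin RNA in the sh-CACUL1 line, whose control, sh-Luc, has a hairpin to luciferase. All 4 lines were given rosiglitazone at 5 μM, IBMX at 0.5 mM, dexamethasone at 1 μg/mL and insulin at 5 μg/mL, were then kept on insulin alone, and were harvested on day 8 of differentiation. The FLAG lines were selected as G418-resistant colonies and the sh lines as hygromycin B-resistant colonies, so the vector and the selection drug cannot be told apart. Each line was sequenced 1 time, so that no difference has a replicate check and no test was run. Levels are FPKM (fragments scaled to the length of the transcript and to the mapped fragments of the library). A difference is the log2 ratio of FPKM + 1 and was called at 2-fold or more in either direction. Gene spans are those of GENCODE M21 on GRCm38, and FPKM stands for the spliced transcript.

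Autophagy encloses cytoplasm in a double membrane and delivers it to the lysosome for breakdown. The Ulk1 kinase complex starts the process, a class III PI 3-kinase complex marks the growing membrane with the lipid PI3P, and Atg9 vesicles and the lipid carrier Atg2 supply membrane. A pair of ubiquitin-like reactions then attaches proteins of the Atg8 family (LC3 and GABARAP) to the membrane, where receptors such as p62 (Sqstm1) bring in cargo. In adipogenesis, autophagy is known to be needed for white fat cells to form, and it also removes mitochondria and lipid droplets.

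Promoters are shown for Map1lc3b and Atg5, the only members called in both comparisons, and for Atg3 and Sqstm1, members called in sh-CACUL1 cells that act beside them in Atg8 loading and cargo binding. Each run covers 250 bases before and 30 bases after the RefSeq start site (build GRCm38.p6) on the gene's own strand, and capitals mark a motif match. The windows are chr8:121590188-121590467 (+) for Map1lc3b, chr10:44268089-44268368 (+) for Atg5, chr16:45158579-45158858 (+) for Atg3 and chr11:50210791-50211070 (-) for Sqstm1.
Map1lc3b: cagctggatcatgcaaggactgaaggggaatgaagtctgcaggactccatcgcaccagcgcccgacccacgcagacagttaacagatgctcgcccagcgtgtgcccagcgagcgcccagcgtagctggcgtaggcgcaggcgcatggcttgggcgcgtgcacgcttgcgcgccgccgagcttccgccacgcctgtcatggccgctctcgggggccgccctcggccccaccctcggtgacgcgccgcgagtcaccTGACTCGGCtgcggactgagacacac
Atg5: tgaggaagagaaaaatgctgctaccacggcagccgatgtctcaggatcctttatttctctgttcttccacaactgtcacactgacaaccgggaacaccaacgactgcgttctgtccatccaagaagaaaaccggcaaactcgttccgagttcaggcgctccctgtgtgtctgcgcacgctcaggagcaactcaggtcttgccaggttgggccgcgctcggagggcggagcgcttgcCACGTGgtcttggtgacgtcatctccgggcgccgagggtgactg
Atg3: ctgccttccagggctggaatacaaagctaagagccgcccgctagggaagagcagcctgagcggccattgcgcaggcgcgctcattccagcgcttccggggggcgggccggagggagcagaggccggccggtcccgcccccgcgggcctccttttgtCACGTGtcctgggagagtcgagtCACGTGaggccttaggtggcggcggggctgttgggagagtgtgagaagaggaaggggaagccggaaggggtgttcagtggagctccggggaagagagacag
Sqstm1: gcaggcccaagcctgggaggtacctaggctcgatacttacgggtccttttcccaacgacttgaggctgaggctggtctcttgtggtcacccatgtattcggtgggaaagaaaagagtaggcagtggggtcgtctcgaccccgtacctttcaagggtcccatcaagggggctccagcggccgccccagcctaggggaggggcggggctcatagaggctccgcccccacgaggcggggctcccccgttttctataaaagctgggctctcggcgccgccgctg

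The motifs were read on both strands of promoters of 300 bases (250 before and 50 after the start), which RefSeq gave for 33 of the 39 members. The E-box CACGTG, a core bound by TFEB and other basic helix-loop-helix factors, was in the promoters of Atg3, Atg5, Atg7 and Atg14, that is 12.1% of the 33, against 11.6% of the 10128 genes of the tables with a promoter and 7.17% of all 32544 promoters. In the sequences above it stands 1 time in Atg5 and at 2 places in Atg3. The antioxidant response element core TGACNNNGC was in Atg13, Map1lc3b, Tax1bp1 and Ulk2, again 12.1%, against 16.8% of the genes of the tables. The forkhead letters GTAAACA were in 0 member promoters and in 3.10% of those genes. The Sqstm1 window held none of the 3 motifs, none of which contains another. A match gives letters in a window, not a bound site, and the shares among members lay close to or below those among all genes.

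Most of the machinery was expressed in every line. At least 1 FPKM was reached in all 4 lines by 35 of the 39 members (73.1% of all genes did so), and at least 10 FPKM by 19 members (29.2% of all genes). The 4 members below 1 FPKM in some line were Ulk4, Atg9b, Optn and Atg16l2. The median member stood at 10.4 FPKM in FLAG versus 11.98 in FLAG-CACUL1, and 11.4 in sh-Luc versus 9.51 in sh-CACUL1, above the median of all genes, which was 6.73, 7.32, 8.28 and 5.68 FPKM in the same order. Sqstm1 was the most abundant member in both FLAG-vector lines and Gabarap in both sh-vector lines. The levels also stayed closer together than those of most genes. The highest line was under 2 times the lowest in 23 members (59.0%), against 31.9% of all genes. It was at least 3 times the lowest in 10 members (25.6%), against 40.5%. These are ratios of plain FPKM, which can grow very large for scarce genes. A smaller share of the members than of all genes was scarce, and the shares were not matched for level.

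**Figure D1:**
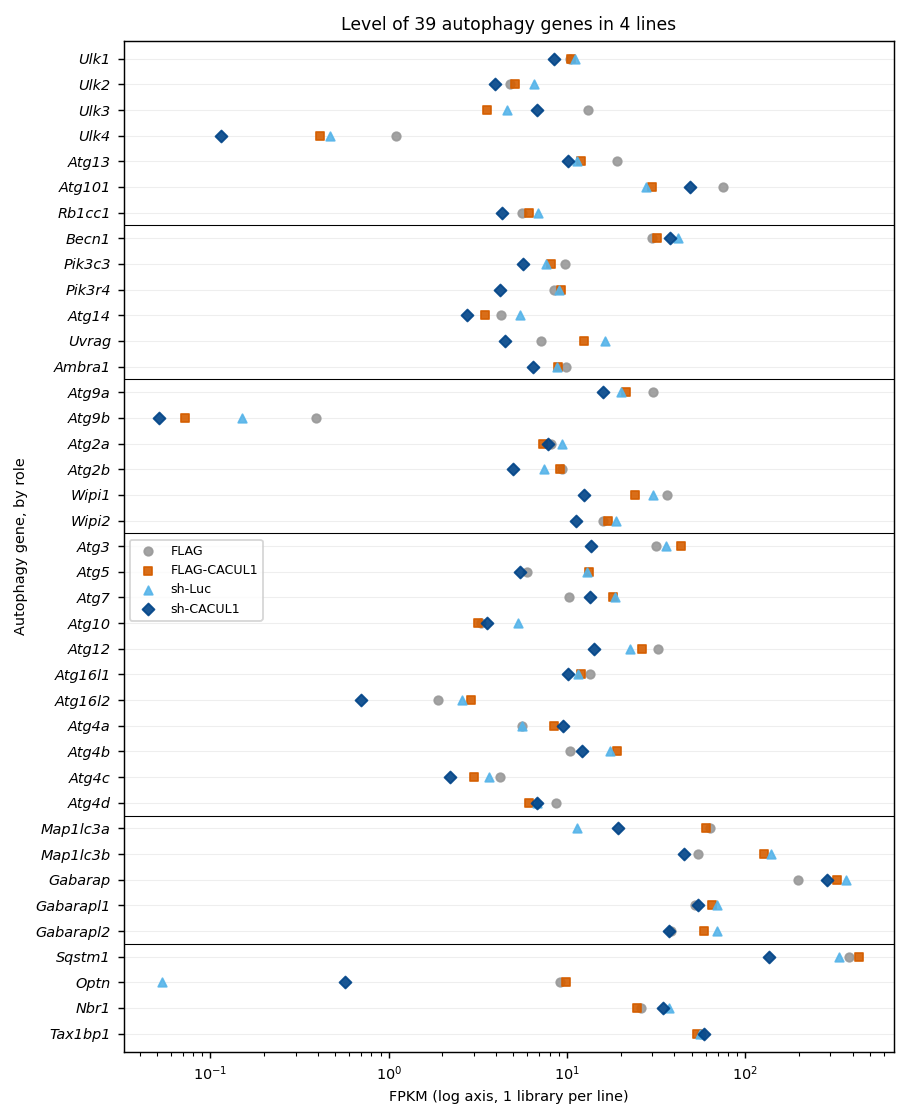
Level of each of the 39 members in the 4 lines, in FPKM on a log axis, with 1 point per line (1 library) and horizontal rules between the role groups. Sqstm1 and Gabarap lie furthest to the right, and Optn shows the widest spread, from 0.0534 FPKM in sh-Luc to 9.93 in FLAG-CACUL1.

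The lines differed in differentiation, and these values stand beside every result below. Summed over 8 adipocyte markers (Adipoq, Fabp4, Plin1, Cidec, Lpl, Cfd, Pparg and Cebpa), the level was 8401 FPKM in FLAG versus 882.1 in FLAG-CACUL1, and 1688 in sh-Luc versus 17517 in sh-CACUL1. All 8 stood lower in FLAG-CACUL1 than in its control and higher in sh-CACUL1 than in its own. They were also all higher in FLAG than in sh-Luc, so the controls were not alike. The labels call the cells preadipocytes, but adipocyte markers were present in all 4 lines. The 7 fibroblast and preadipocyte markers summed to 5895, 5142, 3407 and 700.6 FPKM in the same order of lines. Their directions were mixed: FLAG-CACUL1 had the lower sum of its pair, yet 5 of the 7 stood higher there and 2 lower. Depletion went with a drop in 5 of the 7 and a rise in Thy1 and Dlk1. Thy1 stood at 0.663 FPKM in sh-Luc versus 34.3 in sh-CACUL1, and Dlk1 at 0.220 versus 21.2. Of the other cell types, 3 of 5 macrophage markers had a row and summed to 31.8, 44.0, 4.10 and 4.69 FPKM (Ptprc and Adgre1 had no row). From FLAG to FLAG-CACUL1 only Cd14 was higher (15.0 to 42.2 FPKM), while Cd68 (16.2 to 1.44) and Csf1r (0.607 to 0.397) were lower. The only endothelial marker with a row, Pecam1, reached at most 0.301 FPKM, and the only epithelial one, Krt8, at most 2.64 FPKM. The part of the degree of differentiation in any result was not tested. In these bulk samples, fewer cells of a type and less RNA per cell cannot be told apart.

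Cacul1 itself stood at 9.61 FPKM in FLAG versus 11.8 in FLAG-CACUL1, and 10.2 in sh-Luc versus 5.39 in sh-CACUL1. Its log2 difference was 0.27 upon overexpression and -0.82 upon depletion, both short of 2-fold, and each lay in the direction that the line's label gives.

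Overexpression of CACUL1 went with a small number of calls among the autophagy genes. In FLAG-CACUL1 against FLAG, 4 of 39 members passed 2-fold (10.3%), against 14.7% of all genes. Map1lc3b and Atg5 rose (7.51% of all genes were called higher), and Ulk3 and Atg101 fell (7.22% were called lower). The median member differed by -0.03 on the log2 scale, against 0.09 for all genes, with 19 members higher (48.7%, against 58.7% of all genes) and 20 lower (51.3%, against 41.3%) at any size. By role, the median was -0.57 for the 7 initiation genes, -0.02 for the 6 PI 3-kinase genes, -0.25 for the 6 genes of lipid supply and PI3P binding, 0.43 for the 11 conjugation and processing genes, 0.60 for the 5 Atg8 genes and 0.02 for the 4 receptors. Within the groups the directions were mixed, with 3 of the 7 initiation genes higher and 4 lower, and 6 of the 11 conjugation genes higher and 5 lower. The initiation median was the value of the scarce gene Ulk4, at 1.10 FPKM in FLAG and 0.411 in FLAG-CACUL1.

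Depletion of CACUL1 went with lower levels of much of the machinery, as of most genes in that library. In sh-CACUL1 against sh-Luc, 7 of 39 members passed 2-fold (17.9%), against 21.3% of all genes. All 7 fell (16.4% of all genes were called lower): Map1lc3b, Atg5, Atg3, Atg16l2, Uvrag, Wipi1 and Sqstm1. None of the members rose, against 4.94% of all genes called higher. The median member differed by -0.40, against -0.30 for all genes, and 32 members were lower at any size (82.1%), against 68.7% of all genes. The role medians ran from -0.59 for the PI 3-kinase genes to -0.03 for the receptors.

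Median-of-ratios scaling, which centres the libraries on a common level, moves the median of all genes to -0.00 in this comparison and splits the calls differently. After it, 5 members passed 2-fold (12.8%), against 16.8% of all genes: Map1lc3b and Uvrag remained lower, at -1.17 and -1.27 (5.13%, against 7.76% of all genes), and Atg101, Atg4a and Map1lc3a passed on the higher side, at 1.23, 1.07 and 1.13 (7.69%, against 9.06%). Only 21 members were then lower at any size (53.8%, against 50.3%). The role medians in sh-CACUL1 then ran from -0.21 for the PI 3-kinase genes to 0.41 for the receptors. Those of the initiation genes (0.06) and the Atg8 genes (0.09) were also above zero after scaling. In FLAG-CACUL1 the scaling left 3 members past 2-fold (7.69%, against 14.7% of all genes), Map1lc3b, Ulk3 and Atg101, and took Atg5 to 0.89, and at any size 12 members were higher (30.8%, against 50.4%) and 27 lower (69.2%, against 49.6%). All 7 initiation genes were among those lower. Map1lc3b and Atg101 were then the members past 2-fold in opposite directions in both comparisons (5.13%, against 4.27%). Directions below are for FPKM as deposited.

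**Figure D2:**
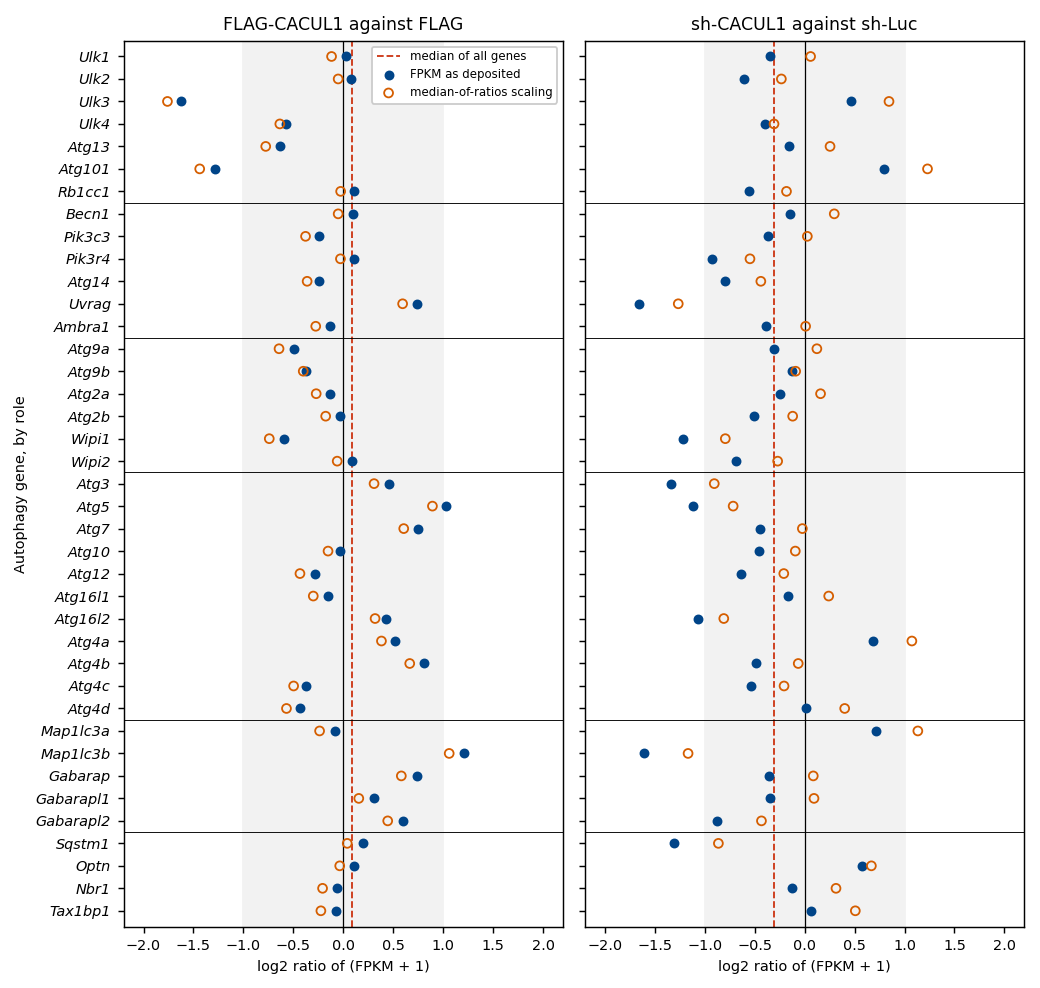
Log2 ratio of FPKM + 1 for each member, in FLAG-CACUL1 against FLAG (left) and sh-CACUL1 against sh-Luc (right), with 1 library per line; filled points are FPKM as deposited, open points follow median-of-ratios scaling, the grey band is less than 2-fold and the dashed line is the median of all genes as deposited. Map1lc3b lies outside the band on opposite sides in the 2 panels under both scales, at 1.21 and -1.61 as deposited.

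The initiation group, which takes in relatives of Ulk1 by name, held the members called lower in FLAG-CACUL1, Ulk3 and Atg101. Ulk1, the kinase that starts autophagosome formation, varied little: 10.4 FPKM in FLAG versus 10.6 in FLAG-CACUL1, and 11.1 in sh-Luc versus 8.50 in sh-CACUL1. Its relative Ulk3 (chr9:57589452-57596233, plus strand), a kinase also known from Hedgehog signalling, stood at 13.1, 3.56, 4.62 and 6.76 FPKM in the same order. FLAG was far above the other 3 lines. The FPKM was 3.68 times lower in FLAG-CACUL1 than in FLAG (95% interval 3.05 to 4.44, exact, from estimated fragments and covering counting error only, like all such intervals here), a log2 difference of -1.63. In sh-CACUL1 the difference was 0.46, within 2-fold. Set against sh-Luc in place of FLAG, Ulk3 differed in FLAG-CACUL1 by -0.30, within 2-fold as well.

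Atg101 (chr15:101284272-101290945, plus strand), a stabilizing partner of Atg13 in the Ulk1 kinase complex, had the same 2 lines on top as Ulk3. It stood at 74.7 FPKM in FLAG versus 30.0 in FLAG-CACUL1, and 27.7 in sh-Luc versus 48.7 in sh-CACUL1. It fell in FLAG-CACUL1 by 1.29 on the log2 scale (2.49 times lower, interval 2.25 to 2.75) and differed by 0.79 in sh-CACUL1, or 1.23 after scaling. The 2 lines with more adipocyte marker expression, FLAG and sh-CACUL1, were the 2 higher lines for both genes. Set against sh-Luc in place of FLAG, Atg101 differed in FLAG-CACUL1 by only 0.11. The other initiation genes were not called in either comparison, and each was lowest in sh-CACUL1 as deposited. After scaling, Ulk1 (0.06) and Atg13 (0.25) were above sh-Luc there. The kinase Ulk2 ranged from 3.95 to 6.54 FPKM, the adaptor Atg13 from 10.1 to 19.1, the scaffold Rb1cc1 (FIP200) from 4.31 to 6.84 and the pseudokinase Ulk4 from 0.114 to 1.10.

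Within the PI 3-kinase complex, the core scaffold Becn1 (Beclin 1) varied little, from 29.8 FPKM in FLAG and 32.0 in FLAG-CACUL1 to 42.0 in sh-Luc and 38.0 in sh-CACUL1. Uvrag (chr7:98885021-99141141, minus strand), a Beclin 1 partner that acts in autophagosome maturation and endosomal traffic, varied far more, at 7.13, 12.5, 16.4 and 4.498 FPKM. It was high in FLAG-CACUL1 and sh-Luc and low in FLAG and sh-CACUL1. In sh-CACUL1 it fell by 1.66 on the log2 scale (3.65 times lower, interval 3.25 to 4.10), the lowest value of the 39 members in that comparison. In FLAG-CACUL1 it differed by 0.73, within 2-fold. With the controls exchanged, the values were -0.56 in sh-CACUL1 and -0.37 in FLAG-CACUL1, so that the call was lost and the latter sign turned. The remaining members, the kinase Pik3c3, its adaptor Pik3r4, Atg14 and Ambra1, were not called. All 4 were lowest in sh-CACUL1 as deposited, and Pik3r4 came closest to a call there, at -0.93. After scaling, Pik3c3 (0.03) and Ambra1 (0.01) were slightly above sh-Luc in sh-CACUL1. The levels of these 4 members ran from 2.73 FPKM, for Atg14 in sh-CACUL1, to 9.85 FPKM, for Ambra1 in FLAG.

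Among the genes of membrane supply and PI3P binding, Wipi1 was called. Wipi1 (chr11:109573331-109611967, minus strand) binds PI3P on the forming membrane, and it stood at 36.6 FPKM in FLAG versus 23.96 in FLAG-CACUL1, and 30.4 in sh-Luc versus 12.5 in sh-CACUL1. It fell in sh-CACUL1 by 1.22 (2.44 times lower, interval 2.18 to 2.74) and differed by -0.59 in FLAG-CACUL1, so its values in both comparisons lay on the lower side. After scaling the sh-CACUL1 value was -0.79, short of 2-fold. Its relative Wipi2, which recruits the Atg16l1 complex, ranged only from 11.2 to 18.8 FPKM. The lipid carriers Atg2a and Atg2b lay between 4.97 and 9.39 FPKM and were not called. Atg9b was near the limit of detection, at 0.390 FPKM or less in every line, while its relative Atg9a stood between 15.99 and 30.4 FPKM. Atg9a shares 44.5% of its stretches of 31 bases with the gene model Gm29253, which had no row, so its reads could be split between them.

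The conjugation genes held 3 of the 7 calls in sh-CACUL1. Atg5 (chr10:44268358-44364291, plus strand), which joins Atg12 and forms the ligase that loads Atg8 proteins onto the membrane, stood at 5.96 FPKM in FLAG versus 13.2 in FLAG-CACUL1, and 12.9 in sh-Luc versus 5.42 in sh-CACUL1. FLAG-CACUL1 and sh-Luc were the 2 higher lines, an order that 31.5% of all genes showed. Atg5 rose in FLAG-CACUL1 by 1.03 (2.22 times higher, interval 1.88 to 2.64) and fell in sh-CACUL1 by 1.12 (2.38 times lower, interval 2.03 to 2.80). The counting interval includes 2-fold in FLAG-CACUL1, and after scaling the values were 0.89 and -0.72, within 2-fold in both. With the controls exchanged, FLAG-CACUL1 differed by 0.03 and sh-CACUL1 by -0.12.

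Atg3 (chr16:45158785-45188538, plus strand), the E2-like enzyme that passes Atg8 proteins to phosphatidylethanolamine, stood at 31.6, 43.8, 35.7 and 13.6 FPKM in the same order. It fell in sh-CACUL1 by 1.33 (2.63 times lower, interval 2.37 to 2.94), with a value of -0.91 after scaling, and differed by 0.46 in FLAG-CACUL1. Atg16l2 (chr7:101263034-101302251, minus strand), a relative of the ligase subunit Atg16l1, was scarce, with 1.90, 2.89, 2.56 and 0.702 FPKM. It fell in sh-CACUL1 by 1.07, and the value was -0.81 after scaling and -0.77 against FLAG. Atg16l1 ran from 10.1 to 13.4 FPKM and was not called.

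Atg7, the E1-like enzyme that feeds both reactions, and the Atg8 protease Atg4b were also higher in FLAG-CACUL1 and sh-Luc than in the other lines, without a call. Atg7 stood at 10.3 FPKM in FLAG versus 18.0 in FLAG-CACUL1, and 18.6 in sh-Luc versus 13.4 in sh-CACUL1, and Atg4b at 10.4, 18.99, 17.4 and 12.2 FPKM. Atg4a was the exception in this group, with 5.63, 8.49, 5.56 and 9.51 FPKM. It was higher in both CACUL1-modified lines, by 0.52 and 0.68, but 74.9% of its stretches of 31 bases occur in the pseudogene Atg4a-ps, so its level is uncertain. The ubiquitin-like Atg12, its E2-like enzyme Atg10 and the proteases Atg4c and Atg4d were not called, at levels from 2.22 to 32.3 FPKM.

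The Atg8 family carried much of the RNA of the pathway and differed between the lines in make-up as well as in level. Map1lc3b (LC3B, the standard marker of autophagosomes, chr8:121590361-121598760, plus strand) stood at 54.3 FPKM in FLAG versus 127.2 in FLAG-CACUL1, and 139.7 in sh-Luc versus 45.1 in sh-CACUL1. Again FLAG-CACUL1 and sh-Luc were high and FLAG and sh-CACUL1 low, and the order was the reverse of that of the adipocyte marker sum except between the 2 lines at the top. Map1lc3b rose in FLAG-CACUL1 by 1.21 (2.34 times higher, interval 2.22 to 2.47) and fell in sh-CACUL1 by 1.61 (3.10 times lower, interval 2.94 to 3.27). Both calls held after scaling, at 1.06 and -1.17. Neither held against the other control: the values were then -0.13 in FLAG-CACUL1 and -0.26 in sh-CACUL1, since FLAG itself was 1.35 below sh-Luc on the log2 scale.

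Map1lc3a (LC3A, chr2:155276297-155278073, plus strand) split the lines by vector. It stood at 63.6 FPKM in FLAG and 59.9 in FLAG-CACUL1, but at 11.4 in sh-Luc and 19.4 in sh-CACUL1. It differed by -0.09 in FLAG-CACUL1 and by 0.71 in sh-CACUL1, or 1.13 after scaling. Between the controls it was 5.56 times higher in FLAG (interval 4.84 to 6.40).

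Gabarap, the most abundant of the family, stood at 196.8, 328.3, 368.9 and 286.9 FPKM, with FLAG below the other 3 lines. Gabarapl1 stood at 52.1, 64.8, 69.3 and 54.2 FPKM and Gabarapl2 at 38.4, 58.5, 69.3 and 37.4 FPKM, and none of these 3 genes was called. They too were higher in FLAG-CACUL1 and sh-Luc than in FLAG and sh-CACUL1, as deposited. After scaling, Gabarap (0.086) and Gabarapl1 (0.093) were slightly above sh-Luc in sh-CACUL1, and Gabarapl2 was below it (-0.43). The 5 genes summed to 405.3 FPKM in FLAG versus 638.7 in FLAG-CACUL1, and 658.7 in sh-Luc versus 443.0 in sh-CACUL1. Map1lc3b made up 13.4%, 19.9%, 21.2% and 10.2% of that sum and Map1lc3a 15.7%, 9.38%, 1.74% and 4.38%. In the FLAG line the 2 LC3 genes were thus about level, whereas in sh-Luc Map1lc3b far exceeded Map1lc3a.

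**Figure D3:**
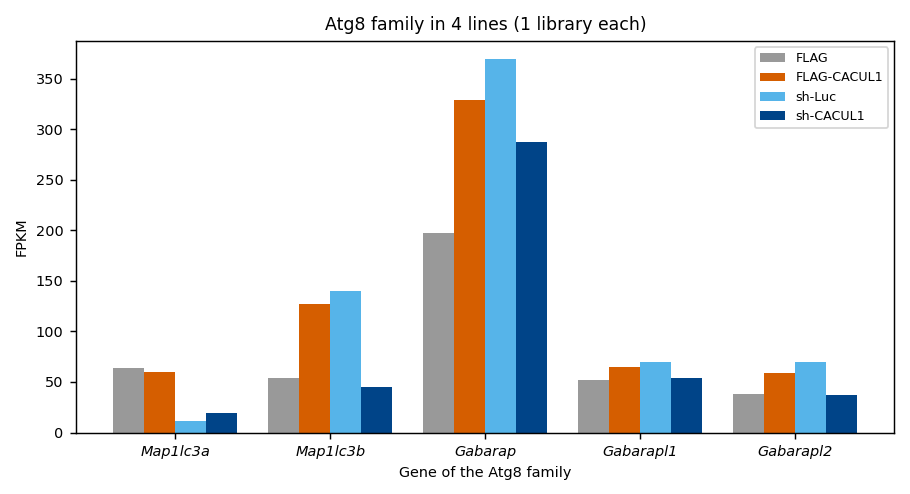
Bars give the FPKM of the 5 Atg8 family genes in the 4 lines, 1 library each, with no error bars because there are no replicates. Map1lc3b is high in FLAG-CACUL1 and sh-Luc (127.2 and 139.7 FPKM), Map1lc3a is high in both FLAG-vector lines (63.6 and 59.9 FPKM), and Gabarap is the tallest in every line.

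The receptors differed from each other. Sqstm1 (p62, chr11:50199366-50210827, minus strand), which binds ubiquitinated cargo and LC3 and is itself consumed by autophagy as a protein, stood at 381.6 FPKM in FLAG versus 436.6 in FLAG-CACUL1, and 336.6 in sh-Luc versus 135.1 in sh-CACUL1. Only the sh-CACUL1 line stood apart. Sqstm1 fell there by 1.31 (2.49 times lower, interval 2.41 to 2.57), with a value of -0.86 after scaling, and in FLAG-CACUL1 it differed by 0.19. Set against FLAG in place of sh-Luc, the sh-CACUL1 value was -1.49.

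Optn (optineurin), a receptor for damaged mitochondria and bacteria (chr2:5020642-5064051, minus strand), split the lines by vector more sharply than any other member. It stood at 9.16 FPKM in FLAG and 9.93 in FLAG-CACUL1, against 0.0534 in sh-Luc and 0.567 in sh-CACUL1, which correspond to about 321, 342, 3 and 21 fragments. It differed by 0.10 in FLAG-CACUL1 and by 0.57 in sh-CACUL1. The FPKM ratio of sh-CACUL1 to sh-Luc was 10.6, but with 3 fragments in sh-Luc its interval ran from 3.34 to 58.6. Nbr1, a receptor related to p62, ranged from 24.8 to 37.5 FPKM, and Tax1bp1 only from 53.6 to 58.7 FPKM, the narrowest span of the 39 members, with the highest line 1.10 times the lowest.

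Set side by side, the 2 comparisons share no sample. Map1lc3b and Atg5 were past 2-fold in opposite directions in both (5.13% of members), against 4.71% of all genes, a share near the background. At any size, 17 members were higher in FLAG-CACUL1 and lower in sh-CACUL1 (43.6%, against 43.4% of all genes), and 5 the other way round (12.8%, against 16.1%). A further 15 members were lower in both (38.5%, against 25.3%), among them Wipi1 and Nbr1, and 2 were higher in both, Atg4a and Optn (5.13%, against 15.2%). Median-of-ratios scaling turned the balance. Then 9 members were higher in FLAG-CACUL1 and lower in sh-CACUL1 (23.1%, against 28.6%), 15 were the other way round (38.5%, against 28%), 12 were lower in both (30.8%, against 21.7%) and 3 higher in both (7.69%, against 21.8%).

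**Figure D4:**
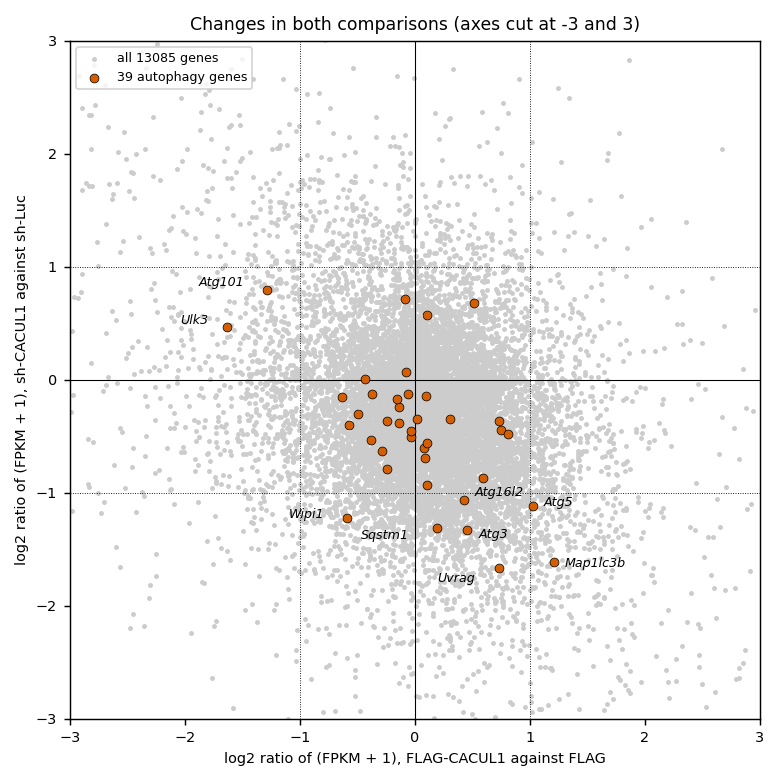
Log2 ratio of FPKM + 1 in FLAG-CACUL1 against FLAG (horizontal) and in sh-CACUL1 against sh-Luc (vertical), with grey points for all genes within the axes, filled points for the 39 members, dotted lines at 2-fold and names for members called in either comparison. Map1lc3b and Atg5 lie in the lower right corner beyond both dotted lines, and most members lie below the horizontal zero line.

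The order of the 4 lines fell into a few patterns. In 15 members FLAG-CACUL1 and sh-Luc were both above FLAG and sh-CACUL1 (38.5%, against 31.5% of all genes): Map1lc3b, Gabarap, Gabarapl1, Gabarapl2, Atg3, Atg4b, Atg5, Atg7, Atg16l2, Ulk1, Ulk2, Rb1cc1, Uvrag, Pik3r4 and Wipi2. Those 2 lines had the lower adipocyte marker sums. The reverse order was seen in 4 members, Atg101, Ulk3, Atg4d and Tax1bp1 (10.3%, against 9.93%). In 10 members both FLAG-vector lines were above both sh-vector lines (25.6%, against 17.3%), with Optn, Map1lc3a and Sqstm1 among them. The sh-CACUL1 line was the lowest of the 4 in 24 members (61.5%, against 41.6%). All these orders are for FPKM as deposited. After scaling, Ulk1, Atg13, Pik3c3, Ambra1, Atg9a and Atg16l1, all among the 24, were above sh-Luc in sh-CACUL1, by 0.01 to 0.25.

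The control lines also differed from each other. In FLAG against sh-Luc, 6 members passed 2-fold (15.4%), against 21% of all genes. Optn, Map1lc3a, Atg101 and Ulk3 were higher in FLAG, by 3.27, 2.38, 1.40 and 1.33 on the log2 scale (8.58% of all genes were called higher), and Map1lc3b and Uvrag were lower, by values of -1.35 and -1.10 (12.4% were called lower). After scaling Uvrag was within 2-fold, at -0.82. Of the 9 members called in a treated line, Map1lc3b, Uvrag, Atg101 and Ulk3 were thus also past 2-fold between the controls, and Atg5 fell just short of it.

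Genes of the pathway that the rule left out were taken from 5 lists of 64 genes, of which 63 had a row. The genes of autophagosome fusion with lysosomes stood higher in FLAG-CACUL1 in 13 of 13 cases (58.7% of all genes were higher at any size), with a median of 0.41 against 0.09 for all genes, and 4 rose past 2-fold (7.51% of all genes did): Snap29 and Ykt6, SNARE proteins of the fusion step, and Vps18 and Vps33a, subunits of the tethering complexes HOPS and CORVET. In sh-CACUL1, 11 of 13 were lower (68.7% of all genes were), with a median of -0.54 against -0.30, and Snap29, Vps18 and the small GTPase Rab7 fell past 2-fold (16.4% of all genes did). After scaling 9 of 13 were higher in FLAG-CACUL1 (against 50.4% of all genes) and 9 of 13 lower in sh-CACUL1 (against 50.3%). Scaling ended the FLAG-CACUL1 call of Vps18 (0.98) and all 3 calls in sh-CACUL1. The controls differed in this list too: 10 of 13 were lower in FLAG than in sh-Luc (against 62.5% of all genes). The median there was -0.58 against -0.18 for all genes, and -0.29 after scaling. Set against sh-Luc in place of FLAG, FLAG-CACUL1 differed by only 0.27 for Snap29 and 0.13 for Ykt6, whereas Vps18 had similar levels in both controls.

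Lysosome membrane and proton pump genes stood in the same directions. In FLAG-CACUL1, 17 of 18 were higher (against 58.7% of all genes), with a median of 0.51, and the pump genes Atp6v1d, Atp6v1h and Atp6ap2 rose past 2-fold (against 7.51%). In sh-CACUL1, 16 of 18 were lower (against 68.7%), with a median of -0.53, and Lamp1, Lamp2, Mcoln1, Atp6v1a and Atp6v1h fell past 2-fold (against 16.4%). Lamp1, a main glycoprotein of the lysosome membrane, stood at 566.1 FPKM in FLAG versus 877.3 in FLAG-CACUL1, and 904.8 in sh-Luc versus 335.1 in sh-CACUL1. Scaling left 14 of 18 higher in FLAG-CACUL1 (against 50.4% of all genes) and 11 of 18 lower in sh-CACUL1 (against 50.3%). It ended the calls of Atp6v1d (0.98) and Atp6v1h (0.92) in FLAG-CACUL1 and all 5 of the sh-CACUL1 calls. Between the controls, 14 of 18 were lower in FLAG than in sh-Luc (against 62.5% of all genes). The median there was -0.28 against -0.18 for all genes, and 0.02 after scaling.

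The other lists were more mixed. Among 15 other receptors, 3 fell in FLAG-CACUL1 (against 7.22% of all genes) and none rose (against 7.51%), with a median of -0.19. The mitophagy receptor Bnip3 stood at 607.8, 147.8, 37.3 and 57.1 FPKM in the order of lines used above, and the glycogen receptor Stbd1 at 60.6, 3.996, 0.0879 and 0.0701 FPKM, so both were far higher in FLAG than in any other line. In sh-CACUL1 Phb2, an inner membrane receptor of mitochondria, rose (4.94% of all genes did) and Tollip fell (16.4% did). After scaling the call of Tollip was lost, at -0.66, and 3 receptors were past 2-fold on the higher side, Phb2, Bnip3 and Bcl2l13 (against 9.06% of all genes). Among 11 other phagophore and PI3P genes, Trp53inp1 rose (against 7.51% of all genes) and Nrbf2 fell (against 7.22%) in FLAG-CACUL1. There 7 of 11 were lower at any size (against 41.3% of all genes), with a median of -0.64 against 0.09 for all genes. Rubcn, an inhibitor of the Uvrag complex, fell in sh-CACUL1 (16.4% of all genes did). Scaling ended the call of Rubcn (-0.72) and brought 3 genes of this list past 2-fold on the higher side in sh-CACUL1 (against 9.06% of all genes). It brought 3 more past 2-fold on the lower side in FLAG-CACUL1 (9.07% of all genes were called lower). None of the 6 transcription factors was called in FLAG-CACUL1 as deposited (against 14.7% of all genes). Foxo1 passed 2-fold on the lower side after scaling, at -1.03 (against 9.07%). In sh-CACUL1 only Foxo3, a forkhead activator of autophagy genes, fell (16.4% of all genes did), from 13.8 FPKM in sh-Luc to 3.00. Tfeb, the activator of lysosome genes, stood at 4.01 FPKM in sh-Luc and 6.51 in sh-CACUL1.

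Of these 63 genes, 4 passed 2-fold in both comparisons, each in opposite directions, against 4.71% of all genes, and after scaling only Phb2 of these 4 did so. Scaling also brought Bnip3, Bcl2l13 and Trp53inp2 past 2-fold in both, lower in FLAG-CACUL1 and higher in sh-CACUL1. The share of all genes past 2-fold in opposite directions was then 4.27%. Trp53inp1 was past 2-fold on the higher side in both after scaling, at 1.08 and 1.05. Snap29 stood at 7.12, 17.1, 14.0 and 6.36 FPKM, Vps18 at 14.1, 31.9, 14.9 and 6.21 FPKM, and Atp6v1h at 36.6, 77.9, 50.9 and 24.7 FPKM in the same order. These 3 were highest in FLAG-CACUL1 and lowest in sh-CACUL1. Phb2 had the reverse order, at 128.5, 61.2, 121.5 and 247.1 FPKM, and unlike Map1lc3b its controls stood close together.

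**Figure D5:**
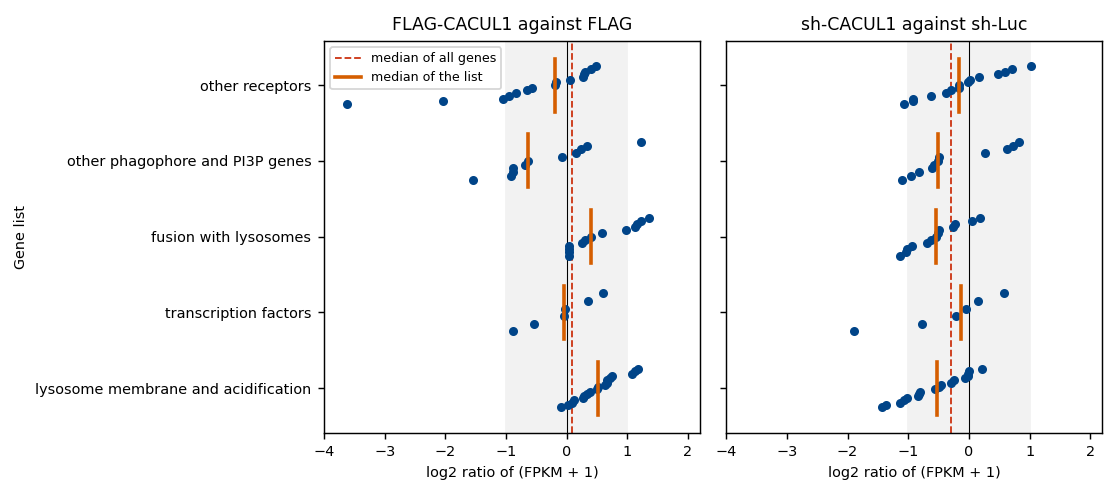
Log2 ratio of FPKM + 1 for the 63 pathway genes outside the rule, 1 point per gene and 1 row per list, in FLAG-CACUL1 against FLAG (left) and sh-CACUL1 against sh-Luc (right); orange bars are list medians, the dashed line is the median of all genes and the grey band is less than 2-fold. The fusion and lysosome lists lie to the right of zero on the left (medians 0.41 and 0.51) and mostly to its left on the right (medians -0.54 and -0.53).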

How the data were processed

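Total RNA of 4 stable 3T3-L1 lines (1 sample each) was turned into mRNA-seq libraries and sequenced by a company. The authors deposited FPKM for 13110 rows per sample, named by RefSeq transcripts; the submitters' processing notes name the build mm10, and the aligner, the counting program and any filter are not given in the sources used here. Depth was estimated from the spacing of low FPKM values in 4241 rows with transcripts of at least 3000 bases: about 14514000 fragments for FLAG and 14286000 for FLAG-CACUL1, and about 24038000 for sh-Luc and 15038000 for sh-CACUL1. Between 82.1% and 87.0% of the lowest values lay within 0.25 steps of a whole multiple (50% without steps), so fragments per gene are approximate. On 2 kb, 1 fragment is worth between 0.0208 and 0.035 FPKM. Exact 95% intervals of ratios (conditional binomial) cover counting error only. No count test was used.

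Rows were joined to symbols through GENCODE M21 (GRCm38); 196 rows had no symbol and 8 had several. Rows of 1 symbol were summed. Each line was compared with the control of its own vector, as log2(FPKM + 1), which understates differences of low genes, with the study's 2-fold cut-off and no test. Members and gene lists were chosen with earlier results of these data known. Members were named when past 2-fold in either comparison, with the Atg8 family, Ulk1, Becn1, Sqstm1, Optn, Nbr1, Tax1bp1 and Wipi1 whatever their values (18 in all). Genes outside the rule were named when past 2-fold in both comparisons. Other genes are examples named after their values were seen. Of the 3 comparisons, FLAG against sh-Luc describes the controls. There were 8 alternatives: pseudocounts of 0.1 and 0, a minimum of 1 FPKM in all samples, median-of-ratios scaling, quantile normalization, the control of the other vector, the highest row of a symbol instead of the sum, and a 3-fold cut-off. Promoters came from RefSeq (GRCm38.p6). Genes sharing at least 50% of their 31-base stretches were called near-identical. Scripts were tested on simulated data. Python 3.11.15, numpy 2.4.6, pandas 2.3.3, scipy 1.17.1 and matplotlib 3.10.9 were used.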

Additional observations from a re-analysis of the deposited data

How the results depend on the processing

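No paired analysis was possible because each line had 1 sample, and leaving out a replicate would leave a group empty. The count of members past 2-fold in FLAG-CACUL1 was 4, and it became 2 with the other control and 1 at 3-fold. In sh-CACUL1 it was 7, and it became 12 without a pseudocount and 2 at 3-fold. Under the other settings the counts stayed within 1.5 times these values, but the members could change. With the other control, the 2 in FLAG-CACUL1 were Map1lc3a (2.29) and Optn (3.37), neither called before. The 6 in sh-CACUL1 then included Atg12 (-1.14), Map1lc3a (-1.66) and Optn (-2.70), also not called before. The median member's log2 difference in FLAG-CACUL1 moved from -0.03 to -0.15 with median-of-ratios scaling. In sh-CACUL1 it moved from -0.40 to -0.51 with a pseudocount of 0.1, -0.52 without one, -0.064 with median-of-ratios scaling and -0.051 with quantile normalization. With the other control, the called values of Atg101 (0.11) and Map1lc3b (-0.13) in FLAG-CACUL1 changed sign, and 19 of the 36 values of named members kept theirs. Of the 36 values of the 18 named members in the 2 comparisons, 11 were called; 5 of them were still called after median-of-ratios scaling, 6 after quantile normalization, 3 with the other control and 11 with either smaller pseudocount. With a minimum of 1 FPKM in all samples, 32 values were left and 10 of 10 calls held. The cause of these moves was not tested. At these depths Optn rests on about 3 fragments in sh-Luc.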
